A study of Mus musculus with 6 samples.

Results

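The enzymes that write, maintain and erase cytosine methylation in DNA were compared between muscle-derived stem cells and embryonic stem cells of the mouse. The set held 9 genes: the methyltransferases Dnmt1, Dnmt3a and Dnmt3b, the catalytically inactive cofactor Dnmt3l, the ubiquitin ligases Uhrf1 and Uhrf2, the dioxygenases Tet2 and Tet3, and the glycosylase Tdg. They were chosen by name, and their probes were found through the RefSeq accession that the array files give for each probe. This gave 18 of the 55681 probes, and 9 of the 37153 genes and unnamed features. The dioxygenase gene Tet1 was not analysed here.

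The study hybridised RNA of 6 cultures to 1-colour Agilent arrays, with 2 arrays per group, to describe cell potency by gene expression. Muscle-derived stem cells (MDSC) labelled Mstn-null came from 5 week old male mice null for Mstn, the gene of the secreted muscle growth inhibitor myostatin, as 2 isolations at passage 1. Wild-type (WT) MDSC came from 5 week old male WT mice in the same way. W4 embryonic stem cells (ESC), from a male line, were taken at passages 12 and 15, and neither kind of cell was treated. MDSC are the fraction of hindlimb muscle cells that adheres last in serial plating, and are thus a cell preparation defined by adhesion. W4 is 1 line, so its arrays are separate passages and not separate lines. Its colonies are described as free of feeders, while the growth protocol has them passaged on inactivated embryonic fibroblasts, which were then depleted by brief plating.

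DNA methylation in mammals is laid down on unmethylated CpG pairs by de novo methyltransferases and copied after each round of replication by a maintenance methyltransferase that is guided to hemimethylated DNA. Dioxygenases of the Tet family oxidise methylcytosine, and base excision started by a glycosylase can then replace it with an unmodified base. Pluripotent cells are known for high levels of the de novo machinery and of Tet activity, while differentiated cells depend mainly on maintenance.

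Levels are log2 signals relative to the 75th percentile of the same array, so a gene at 0 was as bright as that percentile. A gene was called when its adjusted p, from limma with Benjamini-Hochberg adjustment over all 25057 genes tested, was under 0.05. Of the 25057, 15477 had a gene symbol, and the rest were unnamed features, which are counted among the genes tested throughout. Differences are MDSC minus ESC or, between genotypes, MDSC labelled Mstn-null minus WT MDSC. The number of arrays limits the precision, and the p-values measure the spread between these cultures. RNA came from whole cultures, in which fewer cells of a type and less RNA per cell cannot be told apart. The WT arrays lay on a slide of their own, so slide and WT cannot be told apart, while the arrays labelled Mstn-null and the ESC arrays shared the other slide.

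Between 53.3% and 64.6% of the 59305 non-control spots on an array were well above background, and none was saturated. Mstn had levels of -3.06 and -2.47 in MDSC labelled Mstn-null, against -4.90 and -6.71 in WT MDSC and -7.23 and -6.85 in ESC. Its probe was well above background only on the arrays labelled Mstn-null, where its level was at least 4.07-fold that of WT MDSC (limma, adjusted p = 0.135). The probe thus went against that label, its place relative to the deleted part of the gene is not given in the sources used here, and every direction between genotypes rests on the labels. Of 10 pluripotency markers, 10 were well above background in each ESC passage and 5 or 6 on each MDSC array, and Pou5f1, Zfp42, Fgf4 and Tcl1 were not on any MDSC array. Of 12 fibroblast markers, 12 were well above background on every MDSC array. Of 12 myogenic markers 9 to 11 were, against 8 and 7 on the ESC arrays of passages 12 and 15. Myf5 was well above background on no array. Pax7 was so on 1 MDSC array, a WT one, and on the ESC array of passage 12.

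Sequence upstream of a transcript start is shown for the 4 genes with the largest differences between MDSC and ESC, and for Dnmt1, whose window shares a rare motif with that of Uhrf1. The windows are the 250 bases before an annotated transcript start on build GRCm38.p6, in the 5′ to 3′ direction of the gene. Capitals mark CpG pairs, the substrate of these enzymes. A gene can have several such starts. The windows shown for Uhrf1, Tet2 and Dnmt1 lie inside the span of the gene, and that of Dnmt3b overlaps its first bases. These windows can thus hold transcribed sequence. Where a gene had several starts, the window with most CpG pairs is given. They are Dnmt3b at chr2:153649199-153649448 (plus strand), Dnmt3l at chr10:78042037-78042286 (plus strand), Uhrf1 at chr17:56304063-56304312 (plus strand), Tet2 at chr3:133544391-133544640 (minus strand) and Dnmt1 at chr9:20952624-20952873 (minus strand).
Dnmt3b: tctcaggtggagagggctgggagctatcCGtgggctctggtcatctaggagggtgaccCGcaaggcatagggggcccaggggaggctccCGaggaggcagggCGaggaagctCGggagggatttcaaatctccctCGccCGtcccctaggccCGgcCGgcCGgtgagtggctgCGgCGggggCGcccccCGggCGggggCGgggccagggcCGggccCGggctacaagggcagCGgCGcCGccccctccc
Dnmt3l: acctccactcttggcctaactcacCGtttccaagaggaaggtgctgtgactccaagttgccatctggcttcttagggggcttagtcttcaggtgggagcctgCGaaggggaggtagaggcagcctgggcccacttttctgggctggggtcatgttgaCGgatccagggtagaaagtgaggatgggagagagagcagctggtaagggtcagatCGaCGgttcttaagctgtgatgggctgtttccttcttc
Uhrf1: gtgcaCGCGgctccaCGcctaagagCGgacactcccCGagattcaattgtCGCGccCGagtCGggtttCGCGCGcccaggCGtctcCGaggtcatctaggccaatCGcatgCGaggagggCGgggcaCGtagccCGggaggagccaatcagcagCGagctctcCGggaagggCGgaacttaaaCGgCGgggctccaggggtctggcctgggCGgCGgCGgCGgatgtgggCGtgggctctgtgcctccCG
Tet2: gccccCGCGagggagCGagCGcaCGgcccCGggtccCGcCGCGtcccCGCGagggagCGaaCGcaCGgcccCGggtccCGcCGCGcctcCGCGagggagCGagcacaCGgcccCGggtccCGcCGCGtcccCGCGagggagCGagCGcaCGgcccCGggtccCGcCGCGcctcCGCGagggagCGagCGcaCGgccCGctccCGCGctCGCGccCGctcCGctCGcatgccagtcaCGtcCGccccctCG
Dnmt1: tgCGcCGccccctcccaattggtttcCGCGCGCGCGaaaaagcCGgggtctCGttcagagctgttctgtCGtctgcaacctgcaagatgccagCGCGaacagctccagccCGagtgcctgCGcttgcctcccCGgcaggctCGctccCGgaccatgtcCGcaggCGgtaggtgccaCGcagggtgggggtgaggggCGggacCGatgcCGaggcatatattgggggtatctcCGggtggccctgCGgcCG
The windows differ in CpG content. Dnmt3b held 21 CpG pairs, Uhrf1 30, Tet2 51 and Dnmt1 26, against a median of 6 over 32851 promoters of the same length. That median involved no choice of the richest window, which raises the count of a gene with several starts. The windows not shown held 10 for Uhrf1, 2 and 7 for Dnmt1, and 4 and 3 for Dnmt3l. The Dnmt3l window shown held 5, and Dnmt3l was the only one of the 9 genes with no window above that median. An E2F motif, TTTCGCGC or TTTGGCGC on either strand, was found once in the Uhrf1 window and once in the Dnmt1 window, in 2 of the 16 windows of the 9 genes and in 0.654% of all promoters. E2F factors are known to drive genes of S phase. A GC box, GGGCGG on either strand, was in 11 of the 16 windows, for 8 of the 9 genes, and in 32.7% of all promoters. The motifs were counted separately, so matches of different motifs may overlap, and a match describes the letters only.

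In MDSC versus ESC, 7 of the 9 genes were lower in MDSC and none was higher. Those that fell were Dnmt1, Uhrf1, Dnmt3a, Dnmt3b, Dnmt3l, Tet2 and Tdg, with differences from -1.49 to -8.72 on the log2 scale, while Uhrf2 and Tet3 did not pass the test. Among all genes tested, 31.4% were called lower and 28.3% higher. The median difference was -1.78 over the 9 genes and -0.03 over all genes tested. Each of the 9 was well above background on all 6 arrays, so none entered the test through 1 group alone. For 8 of the 9 the MDSC and ESC arrays did not overlap, as for 69.1% of all genes tested.

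**Figure D1:**
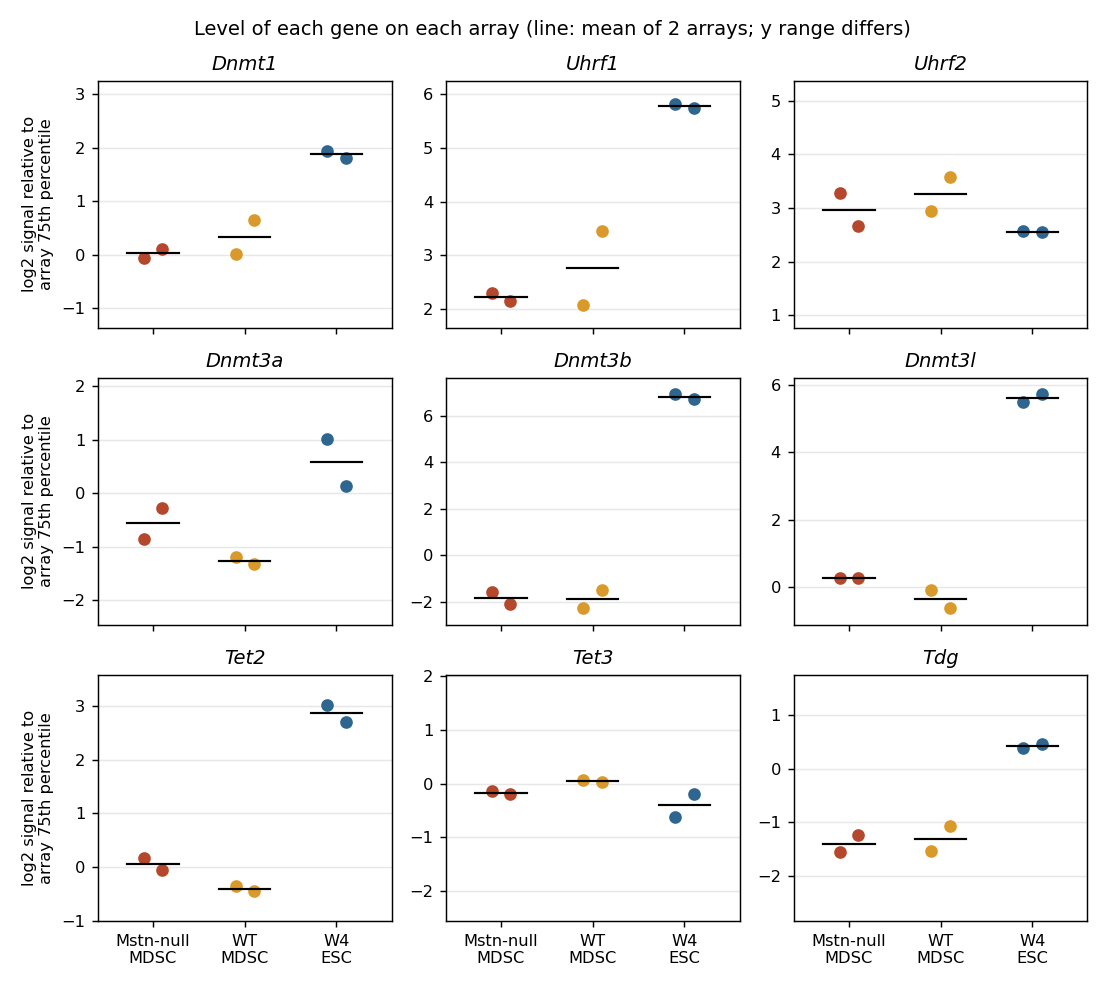
Level of each of the 9 genes on each array, as log2 signal relative to the 75th percentile of the array, with 2 arrays per group (points) and their mean (lines); the groups are MDSC labelled Mstn-null, WT MDSC and W4 ESC, and the y range differs between panels. Dnmt3b and Dnmt3l have differences of -8.72 and -5.65 between MDSC and ESC, while Tet3 overlaps between the cell types and Uhrf2 lies 0.55 higher in MDSC without passing the test.

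The maintenance pair comprises Dnmt1, which copies methylation to the new strand, and Uhrf1, which binds hemimethylated DNA and recruits Dnmt1. Dnmt1 was at -0.06 and 0.11 in MDSC labelled Mstn-null, 0.02 and 0.64 in WT MDSC and 1.94 and 1.81 in ESC of passages 12 and 15. All MDSC arrays lay below both ESC arrays, and the second WT isolation was the highest of the MDSC. The difference was -1.70 ± 0.22 (SE), or 3.24-fold lower in MDSC (limma, adjusted p = 0.00287).

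Uhrf1 was at 2.30 and 2.14 in MDSC labelled Mstn-null, 2.08 and 3.45 in WT MDSC and 5.82 and 5.74 in ESC. The ESC arrays were again above all MDSC arrays, and the second WT isolation stood 1.37 above the first. Uhrf1 was 9.75-fold lower in MDSC, with a difference of -3.29 ± 0.40 (SE; limma, adjusted p = 0.0024). Its dimmer probe A_66_P120074 had processed signals of 25.7 and 23.3 intensity units in MDSC labelled Mstn-null, 16.6 and 66.1 in WT MDSC and 394.9 and 387.2 in ESC. Of the MDSC only the second WT isolation was well above background there, so this probe entered the test through ESC, where it is high, and its difference is not used beside that of the brighter probe.

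Uhrf2 is a relative of Uhrf1 that also binds modified cytosine but is known not to replace Uhrf1 in maintenance. It was at 3.27 and 2.65 in MDSC labelled Mstn-null, 2.94 and 3.58 in WT MDSC and 2.56 in both ESC passages. The MDSC arrays all lay above the ESC arrays, though the lowest of them by little. The difference of 0.55 ± 0.27 (SE) did not pass the test (limma, adjusted p = 0.138, 95% interval -0.15 to 1.26). Its other probe gave 0.49 (adjusted p = 0.182 over all probes), and there the cell types overlapped.

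The de novo group includes the catalytic Dnmt3a and Dnmt3b and the cofactor Dnmt3l, which binds unmethylated histone H3 tails and stimulates both. Dnmt3b showed the largest difference among the 9 genes. It was at -1.57 and -2.12 in MDSC labelled Mstn-null, -2.30 and -1.52 in WT MDSC and 6.95 and 6.74 in ESC. The processed signal of the same probe was 201.4 and 126.3 intensity units in MDSC labelled Mstn-null, 117 and 208 in WT MDSC and 78510 and 69040 in ESC. Those MDSC signals were low but well above background, and the gap between cell types was many times the spread within either. The difference was -8.72 ± 0.30 (SE), or 423-fold lower in MDSC (limma, adjusted p = 0.000117). The other probes of Dnmt3b gave -6.78 and -7.81 (adjusted p = 0.0000532 and 0.0000592 over all probes), so the direction was shared and the size depended on the probe.

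Dnmt3l was at 0.28 in both isolations labelled Mstn-null, -0.08 and -0.63 in WT MDSC and 5.50 and 5.73 in ESC. The ESC arrays stood far above the MDSC arrays. Dnmt3l was 50.3-fold lower in MDSC, with a difference of -5.65 ± 0.21 (SE; limma, adjusted p = 0.000141).

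Dnmt3a, the de novo enzyme that somatic tissues are known to use, was at -0.85 and -0.28 in MDSC labelled Mstn-null, -1.20 and -1.32 in WT MDSC and 1.02 and 0.14 in ESC. The cell types did not overlap, but the ESC passages differed by 0.88, the largest gap between passages among the 9 genes. Dnmt3a was 2.81-fold lower in MDSC, with a difference of -1.49 ± 0.31 (SE; limma, adjusted p = 0.0126). The call was lost when the slide shared by the arrays labelled Mstn-null and ESC was fitted alone, thus without the WT arrays (-1.14, adjusted p = 0.0749). It was -1.05 without the ESC array of passage 12 (adjusted p = 0.0466) and -1.93 without that of passage 15 (adjusted p = 0.0142).

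Tet2 and Tet3 oxidise methylcytosine, and Tdg removes the oxidised bases as well as thymine mispaired with guanine. Tet2 was at 0.16 and -0.06 in MDSC labelled Mstn-null, -0.36 and -0.45 in WT MDSC and 3.02 and 2.71 in ESC. The ESC arrays were well clear of all MDSC arrays, and both arrays labelled Mstn-null were above both WT arrays. Tet2 was 8.24-fold lower in MDSC, with a difference of -3.04 ± 0.17 (SE; limma, adjusted p = 0.00035), and its second probe gave -3.15 (adjusted p = 0.000317 over all probes).

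Tet3 had levels of -0.15 and -0.20 in MDSC labelled Mstn-null, 0.08 and 0.03 in WT MDSC and -0.62 and -0.20 in ESC. The ESC array of passage 15 lay among the arrays labelled Mstn-null. The difference of 0.35 ± 0.17 (SE) did not pass the test (limma, adjusted p = 0.139, 95% interval -0.10 to 0.79). It was 0.14 without the ESC array of passage 12 (adjusted p = 0.488) and 0.56 without that of passage 15 (adjusted p = 0.0541). The dimmer probe A_52_P491273 of Tet3 was called higher in MDSC (0.50, adjusted p = 0.0449 over all probes) without overlap between the cell types, while on none of the arrays was probe A_51_P199339 well above background, and it was not tested.

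Tdg was at -1.56 and -1.24 in MDSC labelled Mstn-null, -1.54 and -1.08 in WT MDSC and 0.38 and 0.46 in ESC. The MDSC arrays of both genotypes lay at like levels below the ESC arrays. Tdg was 3.43-fold lower in MDSC, with a difference of -1.78 ± 0.20 (SE; limma, adjusted p = 0.00202). Its 2 other probes gave -2.46 and -0.95 (adjusted p = 0.000659 and 0.00884 over all probes).

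Of the 18 probes, 17 were tested over all probes, with 13 called lower and 1 higher in MDSC. One of the 13, the dimmer Uhrf1 probe, passed the filter through ESC alone and so could hardly come out other than lower, and of the 16 probes well above background on all arrays 12 were called lower. Over all 33716 probes tested, 31.6% were called lower and 27.3% higher. Probes of a gene pointed the same way for each of the 5 genes with more than 1 probe well above background on all arrays. The 1 probe called higher, of Tet3, was no longer called without the filter on dim probes, with a variance trend and robust fit, or without any 1 of the arrays except the ESC array of passage 12.

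**Figure D2:**
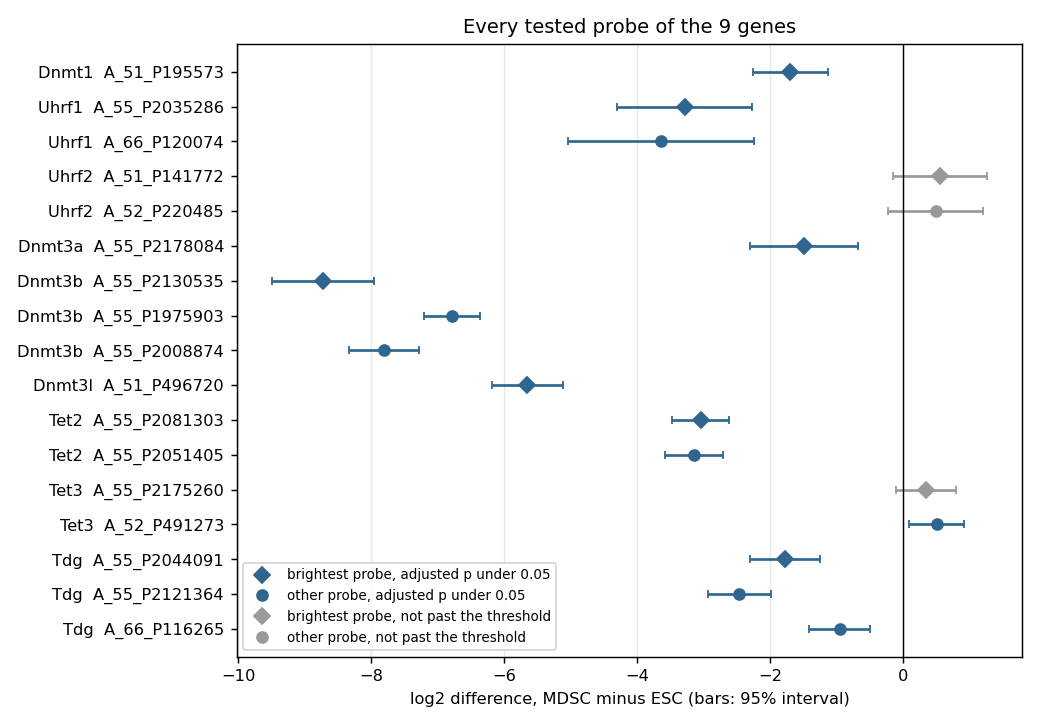
Log2 difference, MDSC minus ESC, of the 17 tested probes of the 9 genes with 95% intervals; diamonds are the brightest probe of a gene, circles its other probes, blue points have an adjusted p under 0.05 and grey points do not. The 3 probes of Dnmt3b lie furthest from 0, at -8.72, -6.78 and -7.81, and the probes of Uhrf2 and Tet3 lie just above 0. The second Uhrf1 probe was well above background on 1 of the 4 MDSC arrays, so its point rests on MDSC values near background.

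The change was also compared within 3 pairs of related genes. The difference between cell types was more negative for Dnmt3b than for Dnmt3a by 7.23, for Uhrf1 than for Uhrf2 by 3.84, and for Tet2 than for Tet3 by 3.39, each taken as the log2 difference of the pair within an array. In each pair the MDSC and ESC arrays did not overlap. The pairs were chosen after their levels were seen, so these values are a description with no test.

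The genes with the most similar pattern over the 6 arrays were found by the root mean square difference of mean-centred log2 levels, among 12401 named genes that were well above background throughout. For Uhrf1 they were Lmnb1 (0.11) and Mcm2 (0.11), and for Dnmt1 Rttn (0.06) and Yy2 (0.07). Dnmt3b was most like Fbxo15 (0.35) and Esrrb (0.65), and Dnmt3l most like Acvr2b (0.23) and Nodal (0.29). For Tet2 they were Pou2f1 (0.13) and Esrp1 (0.17), for Tdg Thada (0.10) and Rfc1 (0.10), and for Dnmt3a Celf5 (0.16) and Vill (0.18). For Uhrf2 they were Obi1 (0.07) and C2cd2 (0.08), and for Tet3 Galnt7 and Ccdc97 (0.03 each). These values describe 6 arrays that fall into 2 cell types, so they largely measure a like difference between the types.

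Each genotype was also set against the same ESC arrays, which the 2 comparisons share. In MDSC labelled Mstn-null versus ESC, 7 of the 9 genes were lower and none higher, where 30.8% of all genes tested were called lower and 23.3% higher. In WT MDSC versus ESC the same counts were 7 and 0, where 25.9% were called lower and 27.1% higher. The differences from ESC were -8.69 in MDSC labelled Mstn-null and -8.75 in WT MDSC for Dnmt3b, and for Dnmt3l -5.34 in MDSC labelled Mstn-null and -5.97 in WT MDSC. For Tet2 they were -2.81 in MDSC labelled Mstn-null and -3.27 in WT MDSC. Dnmt3a was at the edge of the threshold in MDSC labelled Mstn-null (-1.14, limma adjusted p = 0.0474), where 9 of 15 alternative settings lost the call (adjusted p = 0.0271 to 0.192 over all of them). In WT MDSC it was -1.83 (adjusted p = 0.0122).

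In MDSC labelled Mstn-null versus WT MDSC, none of the 9 genes passed the test. No gene of the 25057 was called (limma, 0% higher and 0% lower), although 3671 had an unadjusted p under 0.05, Dnmt3l among them and no other of the 9. With all probes fitted, 5 (0.0148%) were called higher and 3 (0.0089%) lower, none of them a probe of these genes. The differences of the 9 genes ran from -0.55 for Uhrf1 to 0.69 for Dnmt3a, with a median of -0.09, against -0.12 over all genes tested.

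For 4 of the 9 the genotypes did not overlap, as for 51.4% of all genes tested. Dnmt3l was higher on both arrays labelled Mstn-null than on both WT arrays, by 0.63 ± 0.24 (SE, 95% interval 0.02 to 1.25, adjusted p = 0.331). Dnmt3a differed by 0.69 ± 0.36 (SE, adjusted p = 0.48), Tet2 by 0.46 ± 0.19 (SE, adjusted p = 0.375), and Tet3 by -0.23 ± 0.20 (SE, adjusted p = 0.663), each without overlap. For Uhrf1, whose WT isolations differed by 1.37, the 95% interval was -1.73 to 0.64. The dim Tdg probe A_66_P116265 differed by -1.04 without overlap (adjusted p = 0.125 over all probes), while the other Tdg probes were at -0.09 and -0.0047.

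Cell type markers were set beside these values, and none was called between the genotypes. Of the summed levels, only those of the macrophage markers lay apart between genotypes without overlap. The mean log2 levels did so for the macrophage and myogenic markers and, by little, for the fibroblast and pluripotency markers. Those of the endothelial markers overlapped. The median difference between genotypes was 3.75 over the macrophage markers, -2.31 over the myogenic, 0.53 over the fibroblast and -0.16 over the endothelial markers tested. The 12 macrophage markers with a probe had summed levels, as linear signals relative to the 75th percentile, of 112 and 356 in MDSC labelled Mstn-null, 71.5 and 50.8 in WT MDSC and 17.7 and 11.7 in ESC. Such sums follow the brightest genes of a list. The mean log2 levels of the macrophage markers were 2.05 and 4.26 in MDSC labelled Mstn-null, 0.85 and -1.15 in WT MDSC and -3.72 and -3.03 in ESC. The 12 myogenic markers summed to 31.3 and 25.9 in MDSC labelled Mstn-null, 173 and 30.1 in WT MDSC and 3.58 and 10.68 in ESC. Their mean log2 levels were -1.20 and -1.59 in MDSC labelled Mstn-null, 1.68 and -0.73 in WT MDSC and -3.34 and -3.18 in ESC. The 12 fibroblast markers summed to 2134 and 2675 in MDSC labelled Mstn-null, 2328 and 1283 in WT MDSC and 179 and 110 in ESC. Their mean log2 levels were 6.50 and 6.79 in MDSC labelled Mstn-null and 6.49 and 5.39 in WT MDSC. In ESC these means lay apart between the passages, at 2.35 and 0.54. On the ESC arrays 12 and 11 of these fibroblast markers were well above background, with Lum missing at passage 15. Of 8 endothelial markers 6 were well above background on each MDSC array and 5 on each ESC array, without Tie1 and Emcn on any. The part of these cell types in the values of the 9 genes was not tested.

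Proliferation genes were mostly lower in MDSC as well. Of 20 genes of S phase and mitosis, 17 were lower in MDSC than in ESC and none higher, with a median difference of -2.82. Among all genes tested, the shares were 31.4% lower and 28.3% higher. Their mean level was 2.00 and 1.67 in MDSC labelled Mstn-null, 1.51 and 2.84 in WT MDSC and 4.49 and 4.50 in ESC. The second WT isolation was the highest of the MDSC here. Among the 9 genes it was the highest MDSC array for Uhrf1, Dnmt1, Uhrf2, Tdg and, by little, Dnmt3b, the lowest for Dnmt3a, Dnmt3l and Tet2, and neither for Tet3. Mcm2 (-3.48, adjusted p = 0.00207) and Mcm5 (-3.44, adjusted p = 0.00356), subunits of the replicative helicase, had the largest falls. The part of proliferation in the differences of the 9 genes was not tested.

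**Figure D3:**
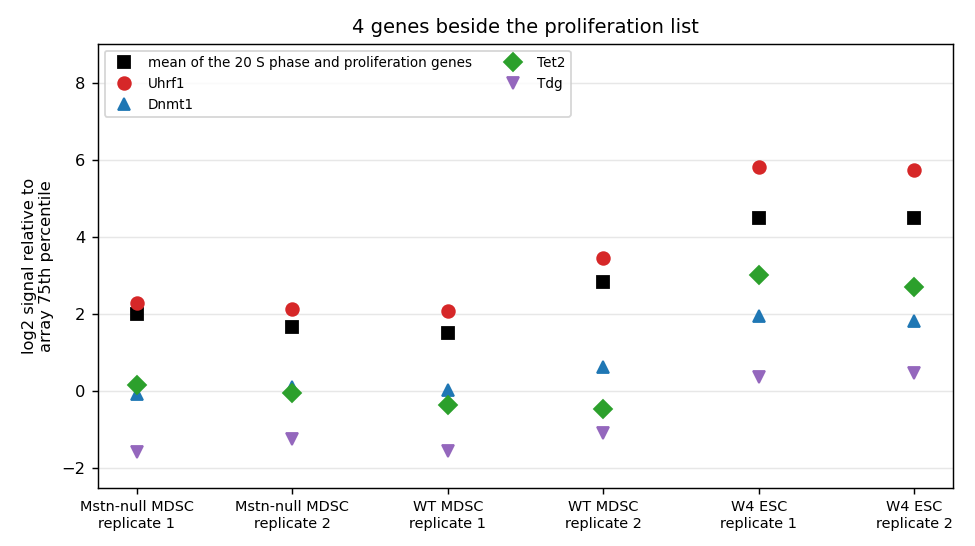
Level of Uhrf1, Dnmt1, Tet2 and Tdg on each array beside the mean level of 20 S phase and proliferation genes (black squares), as log2 signal relative to the 75th percentile of the array; MDSC labelled Mstn-null, WT MDSC and W4 ESC run from left to right. The second WT isolation has the highest proliferation mean among the MDSC (2.84) and the highest Uhrf1 (3.45), Dnmt1 (0.64) and Tdg (-1.08), but the lowest Tet2 (-0.45).

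The partners of the enzymes were described by lists, each read against the 31.4% of genes called lower and 28.3% called higher in MDSC versus ESC. Genes linked to the maintenance or targeting of methylation were mostly lower in MDSC, with 13 of 15 lower, none higher and a median of -2.04. Among the 13, Dppa3 passed the filter on low values through ESC alone and so could hardly come out other than lower. Hells, a chromatin remodeller needed for methylation of repeats, was at -1.71 and -2.35 in MDSC labelled Mstn-null, -2.62 and -0.98 in WT MDSC and 3.02 and 2.70 in ESC. Cdca7, which recruits Hells to chromatin, differed by -5.04 ± 0.63 (SE; limma, adjusted p = 0.00258). Dppa3, which protects the maternal genome from demethylation and hinders Uhrf1, was not well above background on any MDSC array and was at least 74.1-fold lower in MDSC. Zfp57 (-0.39, adjusted p = 0.111), which keeps imprints methylated, and the histone methyltransferase gene Ehmt2 (-0.12, adjusted p = 0.507) did not pass.

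Of 10 genes from the families of methyl-CpG readers, 7 were higher in MDSC and 1 lower, with a median of 1.72. Zbtb4 (3.34, adjusted p = 0.000861), a zinc finger reader, and Mbd5 (2.31, adjusted p = 0.00266), a family member not known to bind methylated DNA, had the largest rises. Mbd4, which besides binding methylated CpG is a glycosylase that acts on thymine mispaired with guanine, as Tdg does, was the 1 that fell (-2.39, adjusted p = 0.00149).

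Of 21 genes of base excision and cytosine deamination, 10 were lower and 2 higher, with a median of -1.09. The glycosylase genes Mutyh (-3.81, adjusted p = 0.000412) and Neil2 (-3.22, adjusted p = 0.000934) had the largest falls, and Gadd45g (1.78, adjusted p = 0.019), a stress gene linked to DNA demethylation, was the rise without overlap. Of 8 tested partners and cofactors of the dioxygenases, 3 were higher and 2 lower, with a median of -0.13. Idh1 (1.19, adjusted p = 0.00199), which makes the cosubstrate of these enzymes, and Pgrmc1 (0.96, adjusted p = 0.00324) rose, while Ogt (-1.06, adjusted p = 0.00386), a glycosyltransferase that binds Tet proteins, fell.

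Genes that supply S-adenosylmethionine, the methyl donor, were lower in 13 of 18 cases and higher in 2, with a median of -0.94. Tdh (-11.24, adjusted p = 0.0000651), which breaks down threonine in mouse ESC, and Gldc (-6.21, adjusted p = 0.00222), of the glycine cleavage system, had the largest falls. Ahcyl1 (1.91, adjusted p = 0.00258), a relative of the enzyme that clears the product of methylation, rose. Mat2a, whose enzyme makes S-adenosylmethionine, differed by -0.62 (adjusted p = 0.0177).

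A list of 18 germline genes known to be kept silent in somatic cells by promoter methylation was lower in MDSC for 15 of the 16 tested. On each MDSC array 5 or 6 of the 18 were well above background, against 16 on each ESC array. The median difference was -4.68, or -3.41 with the 9 genes not well above background on any MDSC array set at their bounds. Those 9 passed the filter on low values through ESC alone and so had to differ. Mael and Dpep3 also passed it through ESC alone and so could hardly come out other than lower. Among the MDSC, Mael was well above background only in the first isolation labelled Mstn-null, and Dpep3 only in the second. Rhox5, a homeobox gene of the reproductive tract, differed by -8.76 (adjusted p = 0.000187), and Tex19.1, which acts in germ cells, was at least 889-fold lower in MDSC. Brdt, a bromodomain gene of the testis, did not pass (0.29, adjusted p = 0.147). DNA methylation was not measured in the arrays.

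**Figure D4:**
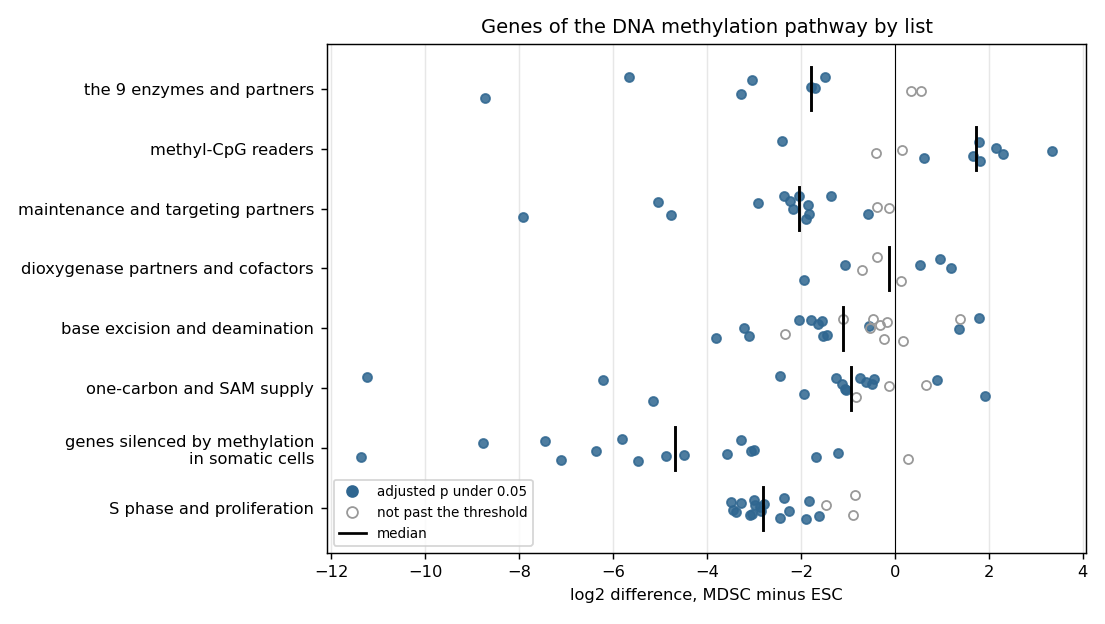
Log2 difference, MDSC minus ESC, of the tested genes of the set and of 7 lists of related genes, 1 point per gene; filled points have an adjusted p under 0.05, open points do not, and black lines are medians. Genes not well above background in MDSC are drawn at their measured difference. The methyl-CpG readers have a median of 1.72, while the other lists have medians from -4.68 to -0.13.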

How the data were processed

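RNA of 6 cultures was labelled with Cy3 and hybridised to 1-colour arrays, per the labels' protocols. The deposited files hold spot intensity values from the authors' scans, extracted with the Agilent Feature Extraction software (10.7.1.1 in the deposited headers, 9.1 according to the submitters' processing notes). These intensities were background corrected and not scaled between arrays, per the file headers. The array design used mouse build mm9, so coordinates are given only for RefSeq promoter sequences of GRCm38.p6.

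From the deposited processed intensity, log2 minus the array's 75th percentile (550 to 647 units) was taken, without the 100 to 122 spots per array with an outlier flag. Accessions were matched to symbols through a RefSeq table, which named 26413 of 55681 probes. The brightest probe stood for a gene, and genes were tested if both arrays of 1 or more groups were well above background. The 3 groups entered 1 linear model in limma (version 3.58.1, under R 4.3.3), with moderated two-sided tests on 3 residual and 2.02 prior degrees of freedom. The contrast of MDSC with ESC weighted both MDSC groups equally. "At least" folds compare the bright mean with, per dim array, the higher of the gene's own signal and the lowest signal well above background.

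The members and lists were chosen with earlier results of these data known. All 9 members were named; of each list, the 2 largest rises and falls past the threshold without overlap, and for likeness the 2 nearest genes. Some list genes that this rule names are not reported here. List genes given as further examples, and the paralog pairs, were chosen after their values were seen. Alternatives were median centring, quantile normalization, normexp (offset 50, run on median signals because the files used here give no mean), other filters on dim probes, kept flags, averaged probes, a variance trend with robust fit, fits of just the groups compared, each array left out, the second slide alone and the isolation number as a block. The fit was tested on simulated data.

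Isolation numbers are shared between the genotypes. Across genes, isolation 1 deviated from its group mean in opposite directions in MDSC labelled Mstn-null and in WT MDSC (r = -0.40 over 25057 genes, 2 pairs), so the numbers were not taken to pair the samples.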

Additional observations from a re-analysis of the deposited data

How the results depend on the processing

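In MDSC versus ESC, 7 members were lower under every alternative except the second slide alone, where 6 were because Dnmt3a was lost. That fit leaves out the WT arrays as well, so it compares only MDSC labelled Mstn-null with ESC. Member probes called higher were 0 without a filter on dim probes and 0 with a variance trend and robust fit, and 0 to 1 over left-out arrays. In WT MDSC versus ESC, members called higher were 1 (Tet3) when probes of a gene were averaged (0.67, adjusted p = 0.0397), and 0 to 1 over left-out arrays, with Tet3 called without the ESC array of passage 15 (0.67, adjusted p = 0.0478). Members lower there were 6 to 7 over left-out arrays, with Dnmt3a lost without the second WT isolation (-1.78, adjusted p = 0.0513). In MDSC labelled Mstn-null versus ESC they were 6 to 7, with Dnmt3a lost under 9 settings. The causes were not tested.

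In MDSC labelled Mstn-null versus WT MDSC, no member was called under any alternative, and some directions turned. Over left-out arrays, Dnmt1 ran from -0.62 to 0.0034, Uhrf1 from -1.23 to 0.14, Uhrf2 from -0.61 to 0.0241, Tdg from -0.32 to 0.14 and Dnmt3b from -0.33 to 0.45. The turned values were those of Dnmt1, Uhrf1, Uhrf2 and Tdg without the second WT isolation, of Dnmt3b (-0.22) and Tdg (0.0723) without the first isolation labelled Mstn-null, of Uhrf2 (0.0149) without the second, and of Dnmt3b without the first WT isolation. Dnmt3b was -0.0185 with normexp, and Tdg was 0.0901 with median centring. With the isolation number as a replicate block, which leaves 1 residual degree of freedom, 0 members and 0 of 22952 genes were called, as with the crossed pairing, added after seeing the data because of the negative correlation. Quantile normalization called 10 genes higher and 12 lower.

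Median centring moved the median of all genes in MDSC versus ESC to 0.14, against -0.03. In MDSC labelled Mstn-null versus ESC it turned the split of called genes to 6338 higher and 5263 lower, against 5849 and 7725. Without the second isolation labelled Mstn-null that comparison called 3638 higher and 4335 lower. With 2 arrays per group, a lone left-out partner is assumed to vary like the other groups, and dim probes such as those of Tet3 and Tdg limit what small differences can show.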
